A study of Mus musculus with 8 samples.

Results

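Th, Ddc, Dbh, Gch1, Slc18a1, Slc18a2, Slc6a2, Maoa and Cyb561, the genes through which a sympathetic neuron makes, stores, takes back and degrades noradrenaline, were followed across the neuronal subtypes of the mouse stellate ganglion and across mice. These 9 genes were chosen by name from the 19224 genes of the expression table, for their known roles. All 9 passed the filter on low values that was applied before testing. The neurons came from stellate ganglia of male C57BL6/J mice aged 8 to 10 weeks, profiled by droplet single-cell RNA sequencing, and all belonged to 1 condition with no untreated comparison group. Every mouse had received a GFP-encoding AAV in the heart and a tdTomato-encoding AAV in the front paws, so that the few retrogradely labelled neurons could be assigned to a target. The protocol describes 16 left and right ganglia digested together, and a mouse name may therefore stand for a pool of ganglia. Of the 1303 neurons, 1002 carried a mouse name that matched a single sample, and these 5 mice are called replicates 1 to 5. The other 301 neurons, under 3 mouse names that did not match a single sample, entered only the pooled values. All 5 matched mice are listed in batch 2 of the study, so how steady a difference was over mice was seen within 1 batch.

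Noradrenaline is made from tyrosine in steps. Tyrosine hydroxylase (Th) carries out the first and rate-limiting step with the cofactor tetrahydrobiopterin, whose synthesis starts with GTP cyclohydrolase (Gch1), and aromatic amino acid decarboxylase (Ddc) then yields dopamine. The vesicular monoamine transporters VMAT2 (Slc18a2) and VMAT1 (Slc18a1) load dopamine into vesicles, where dopamine beta-hydroxylase (Dbh) turns it into noradrenaline with electrons from ascorbate that cytochrome b561 (Cyb561) regenerates. VMAT2 is the usual form of neurons and VMAT1 is best known from chromaffin cells of the adrenal medulla. After release the noradrenaline transporter (Slc6a2) returns the transmitter to the neuron, and monoamine oxidase A (Maoa) degrades what is not repacked. A minority of sympathetic neurons is cholinergic and uses choline acetyltransferase (Chat) and the vesicular acetylcholine transporter (Slc18a3) in place of most of this machinery.

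The promoters of 3 members called different between NA1a and NA2 are shown. Th and Slc18a2 hold the same motif and differed in opposite directions in that pair, though the Th call did not hold under every alternative. RefSeq promoters on GRCm38.p6 matched 6 of the 9 members. The 300 bases around each start (250 before and 50 after) were searched on both strands for TGACGTCA, the palindromic cAMP response element, and for its shorter form TGACG, which lies inside it. Of 32851 mouse promoters, 1.79% held TGACGTCA and 20.8% held TGACG. Each line below gives 100 bases before and 20 after the start, read on the strand of the gene, with the motif in capitals: chr7:142899976-142900095, minus strand, for Th; chr19:59260778-59260897, plus strand, for Slc18a2; chr14:47189394-47189513, minus strand, for Gch1.
Th: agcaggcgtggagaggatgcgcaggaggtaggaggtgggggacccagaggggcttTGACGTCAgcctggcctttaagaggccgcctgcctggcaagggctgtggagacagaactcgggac
Slc18a2: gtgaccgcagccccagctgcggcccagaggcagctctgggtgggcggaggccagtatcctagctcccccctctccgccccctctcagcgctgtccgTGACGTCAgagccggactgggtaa
Gch1: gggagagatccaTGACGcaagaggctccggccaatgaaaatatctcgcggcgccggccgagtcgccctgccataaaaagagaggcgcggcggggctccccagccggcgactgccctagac
TGACGTCA lay at bases -45 to -38 of Th and across the start of Slc18a2, from base -4 to base 4. Gch1 had TGACG alone, beginning at base -88, and Dbh and Maoa had it farther out, beginning at bases -222 and -209. Neither promoter of Ddc held these letters, which says nothing about the factor that reads them. The genes themselves lie at chr7:142892779-142899995 (Th), chr19:59260878-59296012 (Slc18a2), chr14:47153895-47189413 (Gch1) and chr8:69037708-69089238 (Slc18a1).

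The study sorted the neurons into 8 subtypes named NA1a, NA1b, NA1c, NA2 and NA3 (noradrenergic), Ach1 and Ach2 (cholinergic) and Glut, with 316, 311, 239, 175, 99, 64, 62 and 37 neurons. The 5 matched mice held 165 to 235 neurons and 916296 to 1196621 unique molecular identifiers (UMIs, one per captured transcript) each. Median UMIs per neuron ran from 2206.5 in Ach1 to 6773 in NA3, and 21 of 1251 cell barcodes occurred under more than 1 mouse name. Levels are given as UMIs per 10000 UMIs of a neuron, averaged over the neurons of a mouse and subtype where there were at least 10. This gave 5 mice for NA1a, NA1b, NA1c and NA2, 3 for NA3 (replicates 2, 4 and 5), 2 for Ach2 (replicates 1 and 4), 1 for Ach1 (replicate 4) and none for Glut. Differences are on the log2(UMIs per 10000 + 0.1) scale and were tested with limma, which fitted the mouse as a block, and p-values were adjusted over all 7095 genes that passed the filter. The subtypes were clustered on the same neurons, so these tests measure how steady a difference was over mice and not whether the subtypes exist. Non-neuronal cells were not analysed here, and the level that free RNA alone would give is not known. Intervals and limits on shares of neurons cover counting error only.

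Every one of the 9 members differed among subtypes (limma F-test, threshold of 0.05 on the adjusted p), against a background of 65.6% of all genes tested. The smallest adjusted p belonged to Slc18a2 (1.35e-13, limma) and the largest to Dbh (0.000113, limma). Among NA1a, NA1b, NA1c and NA2, 16 of 54 member differences were called, against 26.7% of all gene differences in those 6 pairs. The members therefore differed about as often as other genes did, and what distinguished the subtypes was which member moved. Vesicular transporters and cofactor synthesis moved most, while Dbh, Slc6a2 and Cyb561 were called in none of the 6 pairs on this scale, though on other scales they were. Over all neurons of a mouse, whatever their subtype, Dbh varied least relative to its mean, from 10.2 to 11.3 UMIs per 10000 over the 5 mice, and Slc18a1 varied from 0.186 to 0.521. Such levels also depend on the mix of subtypes. NA1b made up 94 of 235 neurons in replicate 2, with the highest Slc18a1 level, and 33 of 235 in replicate 4, with the lowest.

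**Figure D1:**
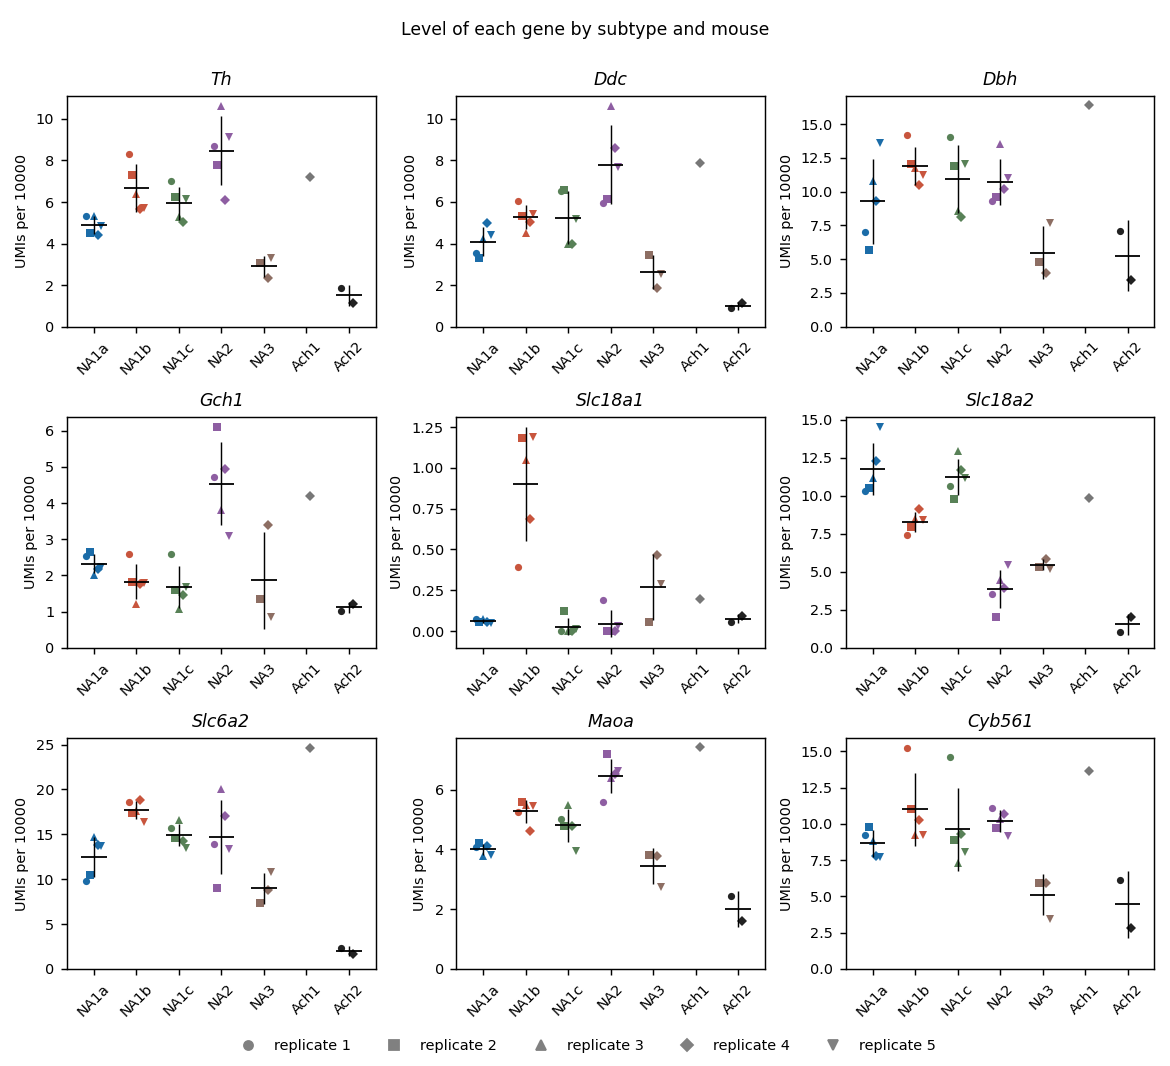
Level of each of the 9 genes in UMIs per 10000 (vertical axis, separate scale per panel) by neuronal subtype, with 1 point per mouse, a line at the mean and a bar of 1 SD where there were at least 2 mice. Slc18a2 was lowest in NA2 among the NA1 and NA2 subtypes, Slc18a1 was highest in NA1b, and 8 genes were lower in Ach2 than in the mean of NA1a, NA1b, NA1c and NA2.

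Th was highest in NA2 and lower in NA1a. In replicates 1 to 5, NA2 held 8.70, 7.80, 10.6, 6.11 and 9.14 UMIs per 10000 and NA1a held 5.32, 4.53, 5.32, 4.40 and 4.83. The ranges did not overlap, and NA1a was lower than NA2 by 0.77 on the log2 scale (SE 0.18, limma adjusted p = 0.000436). That call was lost with the profiles scaled to pan-neuronal genes (-0.30, limma adjusted p = 0.195) and with neurons thinned to 2000 UMIs (-0.73, limma adjusted p = 0.0703). NA1b (6.67 ± 1.14, SD, n = 5) and NA1c (5.95 ± 0.793, SD, n = 5) fell between these, each below NA2 in 5 of 5 mice. The difference of NA1c from NA2 was called (-0.49, limma adjusted p = 0.0161), but without replicate 3 it was -0.36 with a limma adjusted p of 0.125, and that of NA1b was not called.

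Ddc followed the order of Th in its extremes. NA2 held 5.96, 6.13, 10.6, 8.60 and 7.69 UMIs per 10000 in replicates 1 to 5, and NA1a held 3.55, 3.30, 4.22, 5.00 and 4.40, again with no overlap. NA1a was lower by 0.90 (SE 0.21, limma adjusted p = 0.000557). NA1b (5.27 ± 0.568, SD, n = 5) and NA1c (5.25 ± 1.29, SD, n = 5) were also called lower than NA2, by 0.53 (limma adjusted p = 0.0311) and 0.56 (limma adjusted p = 0.0206). Both of these calls depended on single mice. In NA1b minus NA2 the difference was -0.36, -0.47 and -0.54 without replicates 3, 4 and 5 (limma adjusted p 0.206, 0.0830 and 0.0729). In NA1c minus NA2 it was -0.36, -0.43 and -0.56 without the same replicates (limma adjusted p 0.197, 0.111 and 0.0563), and NA1c was the higher of the pair in 2 of 5 mice.

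Gch1, which limits the supply of the Th cofactor, was higher in NA2 than in each NA1 subtype. In NA2 it was at 4.71, 6.10, 3.81, 4.93 and 3.10 UMIs per 10000 in replicates 1 to 5. NA1c held 2.61, 1.59, 1.06, 1.46 and 1.68 in the same mice, so no NA1c value reached the lowest NA2 value. The difference was -1.40 (SE 0.24, limma adjusted p = 5.10e-06), and those of NA1b (1.83 ± 0.491, SD, n = 5) and NA1a (2.33 ± 0.263, SD, n = 5) were -1.26 (limma adjusted p = 2.97e-05) and -0.90 (limma adjusted p = 0.00229). In each of these subtypes Gch1 was lower than in NA2 in 5 of 5 mice. The NA1b and NA1c calls held under every alternative, whereas that of NA1a was lost with the profiles scaled to pan-neuronal genes (-0.44, limma adjusted p = 0.158) and with a minimum of 5 neurons a profile (-0.90, limma adjusted p = 0.168).

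The enzymes inside the vesicle varied less. Dbh averaged 9.28 ± 3.14 UMIs per 10000 for NA1a, 11.9 ± 1.40 for NA1b, 11.0 ± 2.51 for NA1c and 10.7 ± 1.69 for NA2 (SD, n = 5 each), and NA1a alone ran from 5.69 in replicate 2 to 13.6 in replicate 5. Cyb561 was at 8.67 ± 0.914, 11.0 ± 2.50, 9.63 ± 2.87 and 10.2 ± 0.754 in the same order (SD, n = 5 each). These means lay within the spread between mice, and neighbours in either order could not be told apart. Their differences from NA2 moved with the scaling described below. Relative to the median gene, Dbh, Slc6a2 and Cyb561 were called lower in NA1a by 0.56, 0.50 and 0.54, and Cyb561 in NA1c by 0.46. Relative to pan-neuronal genes, Dbh, Slc6a2 and Cyb561 were called higher in NA1b by 0.79, 0.95 and 0.71. In NA1c they were called higher by 0.70, 0.76 and 0.56.

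Maoa was highest in NA2, at 5.58, 7.19, 6.37, 6.52 and 6.61 UMIs per 10000 in replicates 1 to 5. NA1a held 3.99 ± 0.195 (SD, n = 5), below every NA2 value, and was lower by 0.68 (SE 0.18, limma adjusted p = 0.00209). That call was lost with neurons thinned to 2000 UMIs (-0.57, limma adjusted p = 0.178) and with a minimum of 5 neurons a profile (-0.68, limma adjusted p = 0.294). NA1c (4.80 ± 0.554, SD, n = 5) was lower by 0.42 (limma adjusted p = 0.0420), a call lost without replicate 2, 3, 4 or 5, when the limma adjusted p lay between 0.0536 and 0.151 and the difference between -0.48 and -0.35. The noradrenaline transporter Slc6a2 showed no called difference, at 12.5 ± 2.22 for NA1a, 17.7 ± 0.991 for NA1b, 14.9 ± 1.26 for NA1c and 14.7 ± 4.14 for NA2 (SD, n = 5 each). Its widest gap, NA1a below NA1b by 0.52, had a limma adjusted p of 0.0892.

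Slc18a2, the neuronal vesicular transporter, went the other way and was low in NA2. NA2 held 3.53, 2.03, 4.45, 3.92 and 5.48 UMIs per 10000 in replicates 1 to 5, while NA1a held 10.3, 10.5, 11.2, 12.3 and 14.5 and NA1c held 10.6, 9.77, 13.0, 11.7 and 11.2. NA1b lay between at 7.44, 7.94, 8.47, 9.15 and 8.39. Each NA1 subtype was above NA2 in 5 of 5 mice with no overlap. The differences were 1.63 for NA1a (SE 0.18, limma adjusted p = 1.39e-09), 1.57 for NA1c (limma adjusted p = 2.01e-09) and 1.14 for NA1b (limma adjusted p = 2.03e-06), and they were called in the same direction under every alternative tried. NA2 neurons with at least 1 Slc18a2 UMI made up 57.7% on average over mice, against 98.2% in NA1a, 90.0% in NA1b and 96.7% in NA1c. With every neuron thinned to 2000 UMIs, a depth that 101 of 150 NA2 neurons of the matched mice reached, and 176 of 182 in NA1a, 195 of 237 in NA1b and 169 of 216 in NA1c, the share was 58.2% over the 4 NA2 mice with at least 10 such neurons (replicate 2, with 8, was left out) and 86.1%, 81.4% and 90.8% over the 5 mice of NA1a, NA1b and NA1c. NA1b was lower than NA1a by 0.49 (limma adjusted p = 0.144), which was not called.

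These differences were also computed on other scales. The median over all genes was above NA2 by 0.24, 0.28 and 0.31 in NA1a, NA1b and NA1c, so a member with no difference on this scale lay below the median gene. Relative to the median gene, Slc18a2 remained above NA2 by 1.33, 0.81 and 1.23 and Gch1 below it by 1.20, 1.59 and 1.74. Relative to 8 pan-neuronal genes, whose summed level was 228 ± 13.5 UMIs per 10000 in NA2 and 141 ± 10.7 in NA1c (SD, n = 5 each), the NA1c differences of Th, Ddc and Maoa turned to 0.19, 0.12 and 0.26, none of them called, and that of Ddc in NA1b turned to 0.10. The NA1b differences of Th and Maoa, not called on the scale of all UMIs, were called lower relative to the median gene, by 0.66 and 0.61. On the pan-neuronal scale they turned, to 0.30 and 0.34. The NA1a differences of Th, Ddc, Gch1 and Maoa kept their sign on that scale but were no longer called, at -0.30, -0.43, -0.44 and -0.21 (limma adjusted p 0.195, 0.117, 0.158 and 0.376). On that scale Slc18a2 in NA1c was above NA2 by 2.25 and Gch1 below it by 0.73, both still called. The split of all called genes moved as well, from 2443 higher and 1497 lower in NA1c to 1856 and 2061 relative to the median gene and to 3700 and 677 relative to the pan-neuronal genes. For NA1a the split was 2111 and 1001, then 1537 and 1662, then 2838 and 359, and for NA1b it was 2306 and 1358, then 1770 and 1926, then 3471 and 542.

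**Figure D2:**
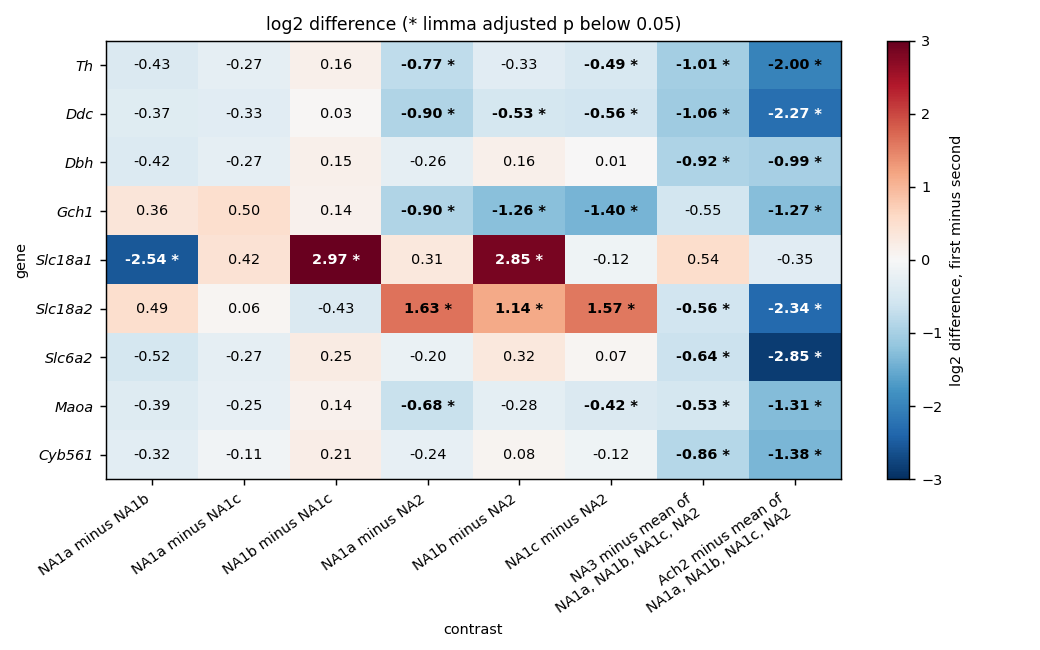
Log2 differences of the 9 genes (rows) in 8 contrasts of subtypes (columns), with colour from lower (blue) to higher (red) in the first-named subtype and a star where the limma adjusted p was below 0.05. The columns against NA2 carry Slc18a2 above and Gch1, Ddc and Th below 0, the columns within NA1 carry stars for Slc18a1 alone, and the Ach2 column carries 8 stars. Several genes in the columns against NA2 and in the NA3 column change sign when scaled to pan-neuronal genes.

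Within NA1, a single member passed the threshold. Of the 9 genes, 1 was called between NA1a and NA1b (background 3.48%, with 2.28% higher and 1.2% lower in NA1a), none between NA1a and NA1c (background 4.37%, with 3.13% higher and 1.24% lower in NA1a), and 1 between NA1b and NA1c (background 1.42%, with 0.479% higher and 0.944% lower in NA1b). For NA1a against NA1c, limma gave 1248 of 7095 genes an unadjusted p under 0.05. In both called cases it was Slc18a1, the transporter known from chromaffin cells. Other members also had 1 direction in 5 of 5 mice with no overlap: NA1a was below NA1b in Th (-0.68 to -0.23 over the mice), Slc6a2 (-0.92 to -0.26) and Maoa (-0.52 to -0.17), and Slc18a2 was lower in NA1b than in NA1a and NA1c. None of these was called, though Slc6a2 was when profiles were weighted by neurons (-0.57, limma adjusted p = 0.0181) or scaled to pan-neuronal genes (-0.69, limma adjusted p = 0.0258). Against NA2, 1 member was called higher and 4 lower in NA1a (background 43.9%, with 29.8% higher and 14.1% lower). In NA1b 2 were higher and 2 lower (background 51.6%, with 32.5% higher and 19.1% lower), and in NA1c 1 was higher and 4 lower (background 55.5%, with 34.4% higher and 21.1% lower).

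Slc18a1 was found mainly in NA1b. There it was at 0.392, 1.18, 1.05, 0.686 and 1.19 UMIs per 10000 in replicates 1 to 5. NA1a held 0.0617 ± 0.0114 (SD, n = 5), and NA1c and NA2 were at 0 in 3 of 5 mice each. NA1b was above each of them in 5 of 5 mice without overlap, by 2.54 over NA1a (SE 0.40, limma adjusted p = 2.99e-05), 2.97 over NA1c (SE 0.40, limma adjusted p = 1.91e-06) and 2.85 over NA2 (limma adjusted p = 9.89e-08). Because the lower levels lie near or under the 0.1 added before the logarithm, these fitted differences depend on that number and are no bound on the fold. Over all 1303 neurons, 128 held a Slc18a1 UMI and 80 of these (62.5%) were NA1b, which made up 23.9% of neurons and 22.8% of UMIs. NA1b also held 126 of the 182 Slc18a1 UMIs (69.2%), against 23 in NA1a, 18 in NA3, 4 in NA1c and 2 in NA2. NA3 came next after NA1b in its share of positive neurons, with 15 of 99 (15.2%) at a median of 6773 UMIs.

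Most NA1b neurons had no Slc18a1 UMI at this depth. In the 5 mice 15.8, 25.5, 29.0, 39.4 and 43.9% of NA1b neurons had one, against 14.3% on average in NA3 (n = 3), 5.60% in NA1a, 1.17% in NA1c and 1.92% in NA2. The NA1a neurons had a median of 6524.5 UMIs and the NA1b neurons 3252, so depth ran against this order. After thinning to 2000 UMIs 15.9% of NA1b, 8.76% of NA3, 1.71% of NA1a and 0.385% of NA1c neurons still had one, and none of NA2. Of the 80 positive NA1b neurons, 52 had 1 UMI, 16 had 2 and 12 had 3 or more, with 5 as the highest count. They were deeper than the other NA1b neurons, with a median of 4894.5 UMIs against 2861. In Glut, 0 of 37 neurons had a Slc18a1 UMI, which allows a share of up to 8.11%.

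Where Slc18a1 was present, Slc18a2 nearly always was too. Slc18a2 was detected in 75 of the 80 Slc18a1-positive NA1b neurons (93.8%) and in 83.1% of the other NA1b neurons, and 7 of all 128 positive neurons lacked it. NA1b nevertheless held less Slc18a2 than NA1a or NA1c in each of the 5 mice. Its share of the UMIs of both vesicular transporters was 5.62, 10.9, 10.2, 7.00 and 11.2% in NA1b of replicates 1 to 5, and 0.585 ± 0.206% in NA1a, 0.332 ± 0.597% in NA1c and 0.799 ± 1.28% in NA2 (SD, n = 5 each). This share does not depend on scaling. NA1b was above NA1a by 8.40 percentage points, above NA1c by 8.66 and above NA2 by 8.19, in 5 of 5 mice each, and the exact two-sided sign-flip test gave p = 0.0625 for each (adjusted 0.0625), the smallest p that 5 mice can give. High shares were not limited to NA1b: NA3 had 1.21, 10 and 5.11% in replicates 2, 4 and 5, from 2, 4 and 7 Slc18a1 UMIs, and Ach2 had 10 and 4.76% in replicates 1 and 4, from 1 UMI each. Chromaffin and small intensely fluorescent cells, which also use VMAT1, were checked by their markers: Chga, the granule protein chromogranin A, was at 1.62 ± 0.508 UMIs per 10000 in NA1b and 4.70 ± 1.74 in NA1a (SD, n = 5 each), Penk was at 0 in every NA1 and NA2 profile, and the summed level of the 4 listed markers in the table, with Slc18a1 among them, ran from 3.80 to 5.56 in NA1b and from 4.45 to 10.6 in NA1a.

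**Figure D3:**
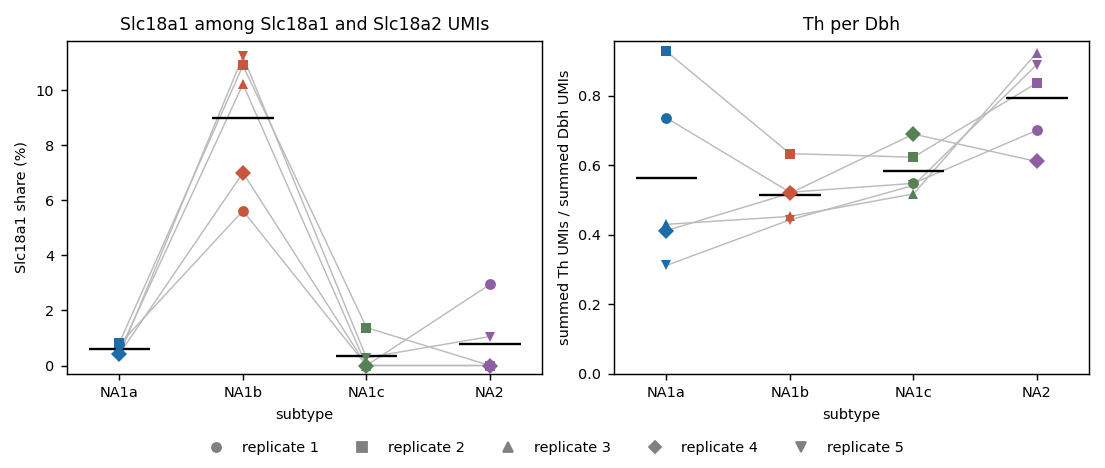
Left, Slc18a1 as a percentage of the summed Slc18a1 and Slc18a2 UMIs; right, Th UMIs per Dbh UMI; both by subtype (NA1a, NA1b, NA1c, NA2), with 1 point per mouse joined by lines and the mean in black. The Slc18a1 share lay between 5.62 and 11.2% in NA1b and at or below 2.94% in NA1a, NA1c and NA2 (NA3 and Ach2, not drawn, reached 10%), whereas the Th per Dbh values overlapped, with the highest mean in NA2 (0.793).

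The first enzyme was also set against the last within the same neurons. Th UMIs per Dbh UMI were 0.793 ± 0.133 in NA2, 0.514 ± 0.0761 in NA1b, 0.584 ± 0.0711 in NA1c and 0.564 ± 0.258 in NA1a (SD, n = 5 each). NA1b was below NA2 in 5 of 5 mice, by 0.62 ± 0.371 on the log2 scale (SD, n = 5), with an exact two-sided sign-flip p of 0.0625 and 0.25 after adjustment over the 6 pairs. No pair could pass 0.05, since 5 mice allow no p under 0.0625. NA1a spread widely, with 0.736, 0.928, 0.430, 0.412 and 0.312 in replicates 1 to 5.

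Nearly every neuron carried some of the machinery. Of 1303 neurons, 1 (in Ach2) held no UMI of any member. All of Th, Ddc, Dbh, Slc18a2 and Slc6a2 were found together in 78.3 ± 7.65% (NA1a), 66.3 ± 12.1% (NA1b), 55.7 ± 7.61% (NA1c) and 46.7 ± 13.8% (NA2) of neurons (SD, n = 5 each). That order followed depth. At 2000 UMIs per neuron the NA1a, NA1b and NA1c shares were 19.2%, 28.6% and 29.5%, and, over the 4 mice that still had at least 10 neurons, the NA2 share was 26.3%.

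On the scale of all UMIs NA3 held less of most members than the other noradrenergic subtypes, a direction that turned when the profiles were scaled to pan-neuronal genes. NA3 profiles carried 190 to 352 UMIs per 10000 of satellite glia genes, as described below. In NA3 minus the mean of NA1a, NA1b, NA1c and NA2, 7 members were lower and none higher, against a background of 18.2% of genes called, with 9.23% lower and 8.98% higher. The median member difference was -0.64, against -0.15 over all genes. Th was at 3.08, 2.34 and 3.29 UMIs per 10000 in replicates 2, 4 and 5, below every value of the 4 other subtypes (difference -1.01, limma adjusted p = 2.14e-05). Ddc (-1.06, limma adjusted p = 0.000179), Dbh (-0.92, limma adjusted p = 0.000664) and Cyb561 (-0.86, limma adjusted p = 0.000321) fell with it. Slc6a2 (-0.64, limma adjusted p = 0.00759), Slc18a2 (-0.56, limma adjusted p = 0.0293) and Maoa (-0.53, limma adjusted p = 0.0349) were lower by less, and all 7 were lower in 3 of 3 mice.

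Gch1 (1.35, 3.39 and 0.853 UMIs per 10000 in replicates 2, 4 and 5) and Slc18a1 (0.0582, 0.464 and 0.291) differed between NA3 mice and were not called, with limma adjusted p of 0.122 and 0.405. Gch1 was called lower without replicate 4 (-1.07, limma adjusted p = 0.00634) and with profiles weighted by neurons (-0.78, limma adjusted p = 0.0190). Calls of the weaker members rested on single mice. Without replicate 4, Slc6a2 (-0.57, limma adjusted p = 0.0948) and Slc18a2 (-0.55, limma adjusted p = 0.145) lost their calls, and Slc18a2 also did without replicate 5 (-0.43, limma adjusted p = 0.249). Maoa lost its call without replicate 2, 4 or 5 (-0.56, -0.64 and -0.40, limma adjusted p 0.0871, 0.0549 and 0.280).

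NA3 profiles also carried much glial RNA. The summed level of 10 satellite glia genes, among them Apoe and Fabp7, ran from 190 to 352 UMIs per 10000 over the 3 NA3 mice, against 6.40 to 8.41 in NA1a, and all 10 were called higher in NA3 and none was at 0 there. The 8 pan-neuronal genes were all lower, with a summed level of 75.4 ± 6.36 (SD, n = 3) against 164 ± 12.5 in NA1a (SD, n = 5). Scaled to those pan-neuronal genes, the 7 differences changed sign: Th, Ddc, Dbh and Cyb561 turned to 0.06, 0.02, 0.17 and 0.23, none called, while Slc6a2 (0.46, limma adjusted p = 0.0367), Slc18a2 (0.52, limma adjusted p = 0.0210) and Maoa (0.55, limma adjusted p = 0.0123) were called higher. Slc18a1 was also called higher on that scale, at 1.26. The 1292 genes called over the whole table split into 637 higher and 655 lower, and into 3995 and 59 on that scale, where the median gene lay at 0.83. The part of glial RNA in the lower levels was not tested.

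**Figure D4:**
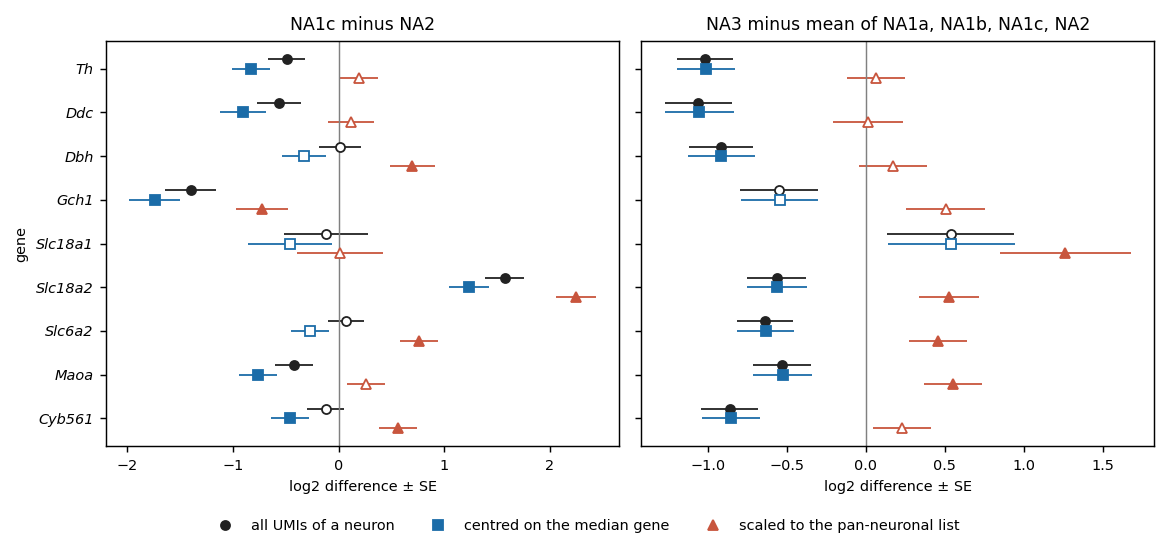
Log2 difference of each of the 9 genes, with its standard error, for NA1c minus NA2 and for NA3 minus the mean of NA1a, NA1b, NA1c and NA2, under 3 scalings: all UMIs, centred on the median gene, and scaled to 8 pan-neuronal genes; filled symbols have a limma adjusted p below 0.05. Slc18a2 stays above 0 and Gch1 below 0 in NA1c minus NA2, whereas Th, Ddc, Maoa and Cyb561 there and every gene but Slc18a1 in NA3 move from below 0 to above 0 with the pan-neuronal scaling.

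Ach2 held far less of the noradrenergic set. There 8 of the 9 members were lower than in the mean of NA1a, NA1b, NA1c and NA2, against a background of 6.57% of genes called, with 4% lower and 2.57% higher, and the median member difference was -1.38, against -0.02 over all genes. Slc6a2 fell most, to 2.37 and 1.63 UMIs per 10000 in replicates 1 and 4 (-2.85, limma adjusted p = 2.42e-13). Slc18a2 was at 1.06 and 2.05 (-2.34, limma adjusted p = 2.28e-10), Ddc at 0.878 and 1.15 (-2.27, limma adjusted p = 1.40e-08) and Th at 1.87 and 1.14 (-1.996, limma adjusted p = 3.48e-09). Reuptake, vesicle loading and the first 2 enzymes of synthesis thus showed the widest differences, and all 4 genes were called under every alternative.

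The other members fell by less. Cyb561 was lower by 1.38 (limma adjusted p = 1.80e-05), Maoa by 1.31 (limma adjusted p = 5.61e-05), Gch1 by 1.27 (limma adjusted p = 0.00478) and Dbh by 0.99 (limma adjusted p = 0.00837), and Slc18a1 (-0.35, limma adjusted p = 0.748) was not called. Dbh stood at 7.11 UMIs per 10000 in replicate 1 and 3.42 in replicate 4. In the 16 Ach2 neurons of the unmatched mouse names, which were not tested, Dbh was at 9.74 and Cyb561 at 7.26. The 46 Ach2 neurons of the matched mice held 4.94 and 3.69. In the unmatched NA1a, NA1b, NA1c and NA2 neurons, Dbh ran from 10.3 to 16.9 and Cyb561 from 9.03 to 11.5. Each member called lower in Ach2 was below these 4 subtypes there too, but Dbh only narrowly. With 1 Ach2 mouse left out, the remaining one was assumed to vary like the other subtypes: without replicate 4, Dbh (-0.58, limma adjusted p = 0.383), Maoa (-0.998, limma adjusted p = 0.0664) and Cyb561 (-0.999, limma adjusted p = 0.0663) were no longer called, and without replicate 1 Gch1 was not (-1.08, limma adjusted p = 0.199). Dbh was also not called with the profiles scaled to pan-neuronal genes (-0.74, limma adjusted p = 0.0815). Chat, Slc18a3 and the choline transporter Slc5a7 were higher in Ach2 by 3.56, 3.34 and 3.31 on the log2 scale (limma adjusted p 2.66e-11, 6.99e-08 and 1.08e-06), with Chat at 0 in every profile of the other subtypes. All of Th, Ddc, Dbh, Slc18a2 and Slc6a2 were found together in 6 of 62 Ach2 neurons (9.68%).

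Ach1, named cholinergic with Ach2, carried the noradrenergic members at levels within or above those of the noradrenergic subtypes. Its values rest on replicate 4, which gave 55 of its 64 neurons, and have no replicate check. In that mouse Slc6a2 was at 24.6 UMIs per 10000 in Ach1, against 13.8, 18.8, 14.2 and 17.1 in NA1a, NA1b, NA1c and NA2. Dbh was at 16.4, against 8.16 to 10.5 in those subtypes, and Th was at 7.19, against 4.40 to 6.11. Cyb561 (13.7) and Maoa (7.42) were also above all 4 of those subtypes there. Slc18a2, at 9.85, lay between NA1b (9.15) and NA1c (11.7). Over the pooled Ach1 neurons, 64 of 64 held Dbh and 43 (67.2%) held all of Th, Ddc, Dbh, Slc18a2 and Slc6a2, whereas Chat was found in 0 of 64, which allows a share of neurons with a UMI of up to 4.69%, Slc18a3 in 6 (9.38%) and Slc5a7 in 1. In Ach2, Chat was found in 20 of 62 neurons (32.3%), Slc18a3 in 33 (53.2%) and Slc5a7 in 25 (40.3%), at median depths of 4414.5 UMIs in Ach2 and 2206.5 in Ach1. In pooled NA1a, NA1b, NA1c, NA2 and NA3 neurons, Slc18a3 was found in 1.27, 0.643, 0.837, 2.29 and 2.02%, all below its share in Ach1. Slc5a7 was found there in 1.90, 1.29, 0.418, 1.14 and 2.02%, a range that holds its Ach1 share of 1.56%. These differences were not tested, and the Ach1 share of Slc18a3 rests on 6 UMIs. Chat was found in only 32.3% of the deeper Ach2 neurons, so the share of Ach1 neurons that express it may exceed the share with a UMI. By how much was not tested, and the cholinergic label of Ach1 could not be borne out from Chat at this depth. The Ach1 profile also held 118 UMIs per 10000 of the satellite glia genes and 37.4 of 5 fibroblast genes, and their part in its levels was not tested.

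Glut neurons, named for glutamatergic genes, could be described only as a pool of 37. Slc6a2 was at 49.4 UMIs per 10000 there, in 34 of 37 neurons, and Dbh was at 27.4, the highest pooled level of either gene among the 8 subtypes. These levels differed between mice. Slc6a2 was at 77.1 in the 7 neurons of replicate 4 and at 15.1 in the 7 of replicate 5, and Dbh was at 25.5 and 2.78 in the same neurons. In the 20 neurons of the unmatched mouse names they were at 49.3 and 37.6. All of Th, Ddc, Dbh, Slc18a2 and Slc6a2 were found together in 20 of 37 (54.1%).

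The genes that serve these enzymes were taken from a list of 28 others of the pathway, of which 14 were tested and 13 differed among subtypes (F-test, limma), against 65.6% of all genes tested. Those of tetrahydrobiopterin synthesis and recycling had the direction of Gch1. Against NA2, Pts, Spr and Pcbd1 were lower in NA1a, by 1.24, 1.04 and 1.26 on the log2 scale, and Pts, Spr, Qdpr and Pcbd1 were all lower in NA1b and NA1c, which made 3, 4 and 4 of the 4 tested, where 14.1, 19.1 and 21.1% of all genes were called lower. Scaled to pan-neuronal genes, Pcbd1 stayed called lower in NA1a, NA1b and NA1c (by 0.79, 0.64 and 1.53) and Pts in NA1b and NA1c (by 1.60 and 1.36), and no other call of these 4 genes against NA2 held. Pts, the enzyme after Gch1 in cofactor synthesis, fell by 2.17 in NA1b and 1.98 in NA1c. In NA3, Pcbd1, Pts and Qdpr were lower, by 1.40, 1.05 and 0.65, beside the glial RNA described above and with no call left on the pan-neuronal scale (-0.39, -0.20 and 0.38), and in Ach2 none of the 4 was called.

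The copper and ascorbate supply of Dbh did not move as 1 group. The copper pump Atp7a was higher than in NA2 by 1.61, 1.48 and 1.34 in NA1a, NA1b and NA1c. These differences varied widely over the mice, from 0.60 to 3.80, from 0.24 to 3.69 and from -0.02 to 4.04. NA1c was the higher in 4 of 5 mice. The ascorbate transporter Slc23a2 was higher by 1.65 in NA1a and 1.45 in NA1c. Slc31a1, which brings copper into the cell, was lower by 0.66, 0.57 and 0.62 in NA1a, NA1b and NA1c, and the copper chaperone Atox1 by 0.75, 0.94 and 1.24. In Ach2, Slc31a1 fell by 2.15 (limma adjusted p = 6.92e-07). All of these passed the threshold of the limma test. On the pan-neuronal scale the calls of Atp7a and Slc23a2, of Atox1 in NA1c and of Slc31a1 in Ach2 held, and Slc31a1 turned to 0.05 in both NA1b and NA1c, not called.

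Of 8 other breakdown enzymes 5 were tested, and on the scale of all UMIs none was called higher than NA2 in any NA1 subtype. Of all genes, 29.8, 32.5 and 34.4% were called higher in NA1a, NA1b and NA1c, and 5 genes are too few to read a result from that count. Maob, the other monoamine oxidase, was lower in NA1a, NA1b and NA1c by 0.80, 0.99 and 0.82, with none of these called on the pan-neuronal scale (-0.35, -0.39 and -0.17). In Ach2, Maob fell by 2.35 (limma adjusted p = 1.07e-05). On the scale of all UMIs the aldehyde dehydrogenase Aldh2 was the 1 member of the wider pathway called higher in NA3, by 2.20, beside the glial RNA there. On the pan-neuronal scale, where the median gene lay at 0.83, those called higher in NA3 included Aldh2 (3.26), Slc23a2 (1.15), Atox1 (1.13), Spr (0.95) and Maob (0.90). The dopamine transporter Slc6a3 and Tph2, an enzyme of serotonin synthesis, were at 0 in every profile.

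Across the 25 mouse and subtype profiles, with each mouse centred on its own mean, the members fell into a shared pattern with exceptions. These correlations are over profiles that share mice, depth and scaling, and are given as a description. Th was closest to Ddc (r = 0.952), followed by the orexin receptor Hcrtr1 (0.919) and Maoa (0.916). Ddc was as close to the copper transporter Slc31a1 (0.952), Cyb561 was closest to Th (0.895) and Slc6a2 also to Th (0.875). Slc18a2 stood apart, with r = 0.370 to Th and -0.0756 to Gch1, and was closest to Itga1 (0.945), L3mbtl4 (0.909) and Tnpo1 (0.902). Gch1 was close to Serinc1 (0.827) and Tppp3 (0.823). Slc18a1 was related to the other members by r between -0.229 and 0.190 and was closest to Ttn (0.867), Adcy1 (0.834) and Ltk (0.833).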

How the data were processed

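Neurons of stellate ganglia from 8 samples were profiled on the 10x Genomics platform. The submitters' processing notes name Cell Ranger 2.1.1, Seurat and Scanpy on mm10. The authors mapped reads to GRCm38 (Ensembl release 98) with the GFP sequence added, kept cells with 500 to 6000 genes, under 20000 UMIs and under 15% mitochondrial reads, and clustered neurons with Seurat v3 on 30 principal components. Expression was deposited as natural log(1 + UMIs per 10000) for 19224 genes and 1303 neurons. From these values 100% of nonzero entries gave UMIs within 0.01 of a whole number, and 88.0% of all entries were 0. The study's methods name no doublet removal, and none was applied here.

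The replicate was the mouse. UMIs per 10000 were averaged per mouse and subtype (at least 10 neurons, subtypes in at least 2 mice), genes had to average 0.5 or more in 2 or more of the 25 profiles, and log2(mean + 0.1) was fitted with limma 3.58.1 (R 4.3.3) with the mouse as a fixed block and a trend in the prior variance. Profiles of 1 mouse come from the same animals; their residuals correlated at 0.0615 on average, against -0.0616 between mice. Where a difference from 4 subtypes is given, the reference was the mean of NA1a, NA1b, NA1c and NA2. Ratios of summed UMIs were compared with exact two-sided sign-flip tests over mice, adjusted by Benjamini-Hochberg. Shares after thinning used 2000 UMIs per neuron drawn at random. Alternatives were another pseudocount, filter, neuron minimum, weighting or scaling, thinned neurons, no block, and each replicate left out. Python 3.11.15, NumPy 2.4.6, pandas 2.3.3, SciPy 1.17.1 and matplotlib 3.10.9 were used, and the fits were tested on simulated data.

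The text names all 9 members, the other pathway genes as counts with called values, and for each member genes among the 3 with the highest Pearson correlation; a few values under this rule are not reported here. The members and lists were chosen with earlier results of these data known.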

Additional observations from a re-analysis of the deposited data

Results flagged for a closer look

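Within groups of 5 mice, 44 sets of member levels and ratios were compared for a single mouse far from the others. The rule was a gap to the next mouse above 0.71 of the whole range, and 4 stood apart. Chance gives about 5% for continuous values, a share that does not apply to Slc18a1 values at or near 0. Cyb561 in NA1c was at 14.6 UMIs per 10000 in replicate 1, against 7.33 to 9.30 in the other mice. Slc18a1 in NA1c was at 0.120 in replicate 2, against 0 to 0.0142, and its share of vesicular monoamine transporter UMIs there was 1.38%, against 0 to 0.282%. Both rest on the same 3 UMIs. Slc18a1 in NA2 was at 0.190 in replicate 1, against 0 to 0.0304. The NA1c and NA2 values of Slc18a1 each rest on few UMIs, since all neurons of these subtypes together held 4 and 2.

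In the neurons whose mouse names matched no single sample, which entered no comparison, Slc18a1 was found in 10 of 74 NA1b neurons (13.5%) with 15 UMIs, in 8 of 134 NA1a neurons (5.97%) with 13 UMIs, and in none of 23 NA1c and none of 25 NA2 neurons, which allows shares of up to 13.0% and 12.0%. Their median depths were 3000.5, 4750, 2190 and 3341 UMIs. The pooled Slc18a1 level was 0.525 UMIs per 10000 in these NA1b neurons and 0.188 in these NA1a neurons, against 0.970 and 0.0637 in those of the matched mice, a narrower gap.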

How the results depend on the processing

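Of 72 member differences 31 were called. 12 of these kept their call and direction under every alternative: Slc18a1 in NA1b against NA1a, NA1c and NA2, Slc18a2 in each NA1 subtype against NA2, Gch1 in NA1b and NA1c against NA2, and Slc6a2, Slc18a2, Ddc and Th in Ach2. 20 kept their direction throughout, and 11 changed it with the profiles scaled to the pan-neuronal list. On that scale NA3 had 4 called members, all higher, and the changed values were 0.17 for Dbh, 0.55 for Maoa, 0.064 for Th, 0.46 for Slc6a2, 0.015 for Ddc, 0.23 for Cyb561 and 0.52 for Slc18a2. Against NA2 they were 0.10 for Ddc in NA1b and, in NA1c, 0.26 for Maoa, 0.19 for Th and 0.12 for Ddc. Cyb561 in NA1c, not called on the scale of all UMIs, was called at 0.56 on the pan-neuronal scale (limma adjusted p = 0.00786). Relative to the median gene it was instead called lower, by 0.46. A further 31 sign changes were of differences called in neither fit.

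Thinned to 2000 UMIs per neuron, the calls fell from 16 to 10 among the 6 pairs, from 7 to 3 in NA3, and over all genes from 4657 to 3007 (F-test) and from 11374 to 6224 (pairs). Fewer neurons enter that fit. With a minimum of 5 neurons a profile they were 10, 4 and, over all genes in pairs, 6936, and the cause was not tested. Without the replicate block the members had 15 calls in pairs and 6 in NA3, and all genes 10906 in pairs, and 2 calls were lost. Leaving out each replicate gave 12 to 16 member calls in pairs, 5 to 7 in NA3 and 5 to 8 in Ach2, the 5 without replicate 4, and over all genes 4007 to 4254 (F-test) and 9735 to 10168 (pairs). The Slc18a1 share difference of NA1b from NA1a ranged from 7.79 to 9.29 percentage points and the Th per Dbh difference of NA1b from NA2 from -0.72 to -0.52. Depth limits Slc18a1 most, since most positive neurons held 1 UMI, and Ach1 and Glut had too few mice for a test.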

Other observations

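Retrogradely labelled neurons were few. GFP, from the heart injection, was found in 6 neurons. All 6 held Th, Ddc, Dbh and Slc6a2, 5 held Gch1, 5 Slc18a2, 5 Maoa and 5 Cyb561, and 3 held Slc18a1 (2 in NA1a and 1 in NA1b). tdTomato, from the paw injection, was found in 20 neurons, of which 20 held Slc6a2, 18 Dbh, 17 Th, 15 Slc18a2 and 3 Slc18a1. These 3 were 1 NA1a, 1 NA1b and 1 NA3 neuron. The pooled levels of Slc18a2 were 7.68 and 7.84 UMIs per 10000 and those of Slc6a2 12.7 and 13.1 in the GFP and tdTomato neurons. The median depths were 5835.5 and 2699.5 UMIs, the subtypes differed, and no test was made between the labels.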
